A study of Mus musculus with 6 samples.

Results

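Genes of the vascular endothelial growth factor (VEGF) system were followed in mouse heart cells after myocardial infarction (MI): the ligand genes Vegfa, Vegfb and Pgf, the receptor genes Flt1 and Kdr, and the co-receptor gene Nrp1. They were chosen by gene symbol, and all 6 were found among the 17714 genes of the deposited table and passed the filter on low counts. The libraries carry the label of cardiac lymphatic endothelial cells of wild-type mice, 3 after sham operation and 3 after MI, all at day 3. The labels' protocols speak of heart tissue or primary heart endothelial cells without saying which was used, name a serum-containing culture medium, and give no age, sex or sorting step. Nothing in them says that the 3 libraries of a group came from separate animals, so every p-value here rests on a spread between libraries that may be technical.

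VEGF-A is the main growth factor for blood vessels and is made by many cell types under low oxygen. It binds 2 tyrosine kinase receptors of the endothelium, VEGFR-2 (gene Kdr), which carries most of the growth signal, and VEGFR-1 (gene Flt1), which binds tightly, signals weakly and in its soluble form acts as a decoy. VEGF-B and placental growth factor (gene Pgf) bind VEGFR-1 and not VEGFR-2. Neuropilin-1 (gene Nrp1) holds VEGF-A beside VEGFR-2, also binds class III semaphorins, and is found on some macrophages and other cells as well as on endothelium.

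The sham libraries held 3206373 to 3591135 estimated counts and the MI libraries 21154200 to 21689212, 6.29 times as many on average, so depth followed the group and a library batch that followed it cannot be told apart from the operation. Markers of several cell types were present, and no marker of any cell type list was at 0 throughout a group. All 20 macrophage and monocyte genes were called higher in MI (summed level 5196 to 5419 CPM, counts scaled to library size, in sham and 34522 to 38260 in MI). All 20 pan-endothelial genes were called lower (9788 to 10004 CPM in sham, 2383 to 2551 in MI). All 12 blood capillary endothelial genes were lower too (median log2 fold change -2.97, 20185 to 20554 CPM in sham, 3072 to 3223 in MI). Of 12 lymphatic endothelial genes, 11 were lower (median log2 fold change of the 12 -2.42); these 11 summed to 556 to 574 CPM in sham and 91.7 to 99.1 in MI. The other one, Pdpn, which many stromal cells also express, rose from 4.93 to 201.5 CPM. Of 14 cardiomyocyte genes 13 were lower (median of the 14 -4.09); these 13 summed to 4237 to 4347 CPM in sham and 190.4 to 234 in MI. The other one, the calcium pump gene Atp2a2, was at 339.9 and 388.9 CPM and was not called. All 8 tested neutrophil genes were higher (median 3.81, the list's sum 45.2 to 55.1 and 760 to 939 CPM), with Ly6g and Camp below the filter. All 11 mural genes, of pericytes and smooth muscle, were lower (median -1.70, 3316 to 3332 and 897 to 904 CPM). Of 12 fibroblast genes 5 were higher and 7 lower (3025 to 3113 and 4772 to 4891 CPM). Fewer cells of a type and less RNA per cell cannot be told apart in such libraries. MI 1 stood farthest from its group, with a chi-square per gene of 35.3 and 21.3 against the other MI libraries, which differed from each other by 4.14. The sham pairs differed by 1.54, 1.63 and 1.77. This statistic grows with depth, so its size cannot be compared between the groups.

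The promoters of the ligand gene that rose most and of the 3 receptor genes that fell together are shown, each as the 250 bases before a start site of the RefSeq promoter table (GRCm38.p6, written 5′ to 3′ along the gene). The table lists 2 start sites for Vegfa and for Pgf, of which the one nearer the gene's 5′ end was taken. The Flt1, Kdr, Nrp1 and Pgf windows lie inside the extent that RefSeq gives for the gene, which starts farther upstream, and those of Vegfa and Vegfb adjoin it. Capitals mark the 4-base core of ETS factors, GGAA or its reverse complement TTCC; ETS factors are the main regulators of endothelial genes.
Vegfa (chr17:46032378-46032627, minus strand): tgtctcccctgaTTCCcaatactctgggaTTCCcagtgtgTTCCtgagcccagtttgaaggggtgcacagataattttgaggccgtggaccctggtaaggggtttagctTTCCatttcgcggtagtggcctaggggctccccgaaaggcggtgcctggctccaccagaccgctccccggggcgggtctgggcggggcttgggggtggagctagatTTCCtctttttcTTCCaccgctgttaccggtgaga
Flt1 (chr5:147726012-147726261, minus strand): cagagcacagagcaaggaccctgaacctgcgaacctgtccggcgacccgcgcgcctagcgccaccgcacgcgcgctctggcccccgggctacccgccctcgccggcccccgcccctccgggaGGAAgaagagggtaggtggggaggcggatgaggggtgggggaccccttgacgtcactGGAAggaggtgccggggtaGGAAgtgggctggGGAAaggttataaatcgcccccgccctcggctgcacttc
Kdr (chr5:75978456-75978705, minus strand): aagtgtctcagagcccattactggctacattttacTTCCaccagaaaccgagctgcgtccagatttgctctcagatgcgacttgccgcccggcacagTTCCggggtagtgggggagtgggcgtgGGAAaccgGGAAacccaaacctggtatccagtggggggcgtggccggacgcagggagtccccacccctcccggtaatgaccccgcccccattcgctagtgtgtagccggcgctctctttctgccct
Nrp1 (chr8:128358823-128359072, plus strand): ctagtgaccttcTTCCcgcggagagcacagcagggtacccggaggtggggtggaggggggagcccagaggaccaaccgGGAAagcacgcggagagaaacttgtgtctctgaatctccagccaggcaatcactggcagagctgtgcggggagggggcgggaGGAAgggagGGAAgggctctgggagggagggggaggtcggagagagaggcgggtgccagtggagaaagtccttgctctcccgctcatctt
The Flt1, Kdr and Nrp1 windows each held 4 ETS cores, the Vegfa window 6, the Vegfb window 1 and the Pgf window 0. In 32851 promoter windows of the same length, the median was 3 cores, 93.4% held at least 1 and 33.4% held 4 or more. The hypoxia response core (ACGTG or GCGTG, either strand) occurred in 38.6% of windows. It was found once in the Flt1, Nrp1 and Pgf windows, 2 times in those of Kdr and Vegfb, and not in that of Vegfa. A GC box (GGGCGG, either strand) occurred in 32.7% of windows and in all 6 of these, with 4 in Vegfb, 3 in Flt1, 2 in Vegfa, Pgf and Kdr, and 1 in Nrp1. Flt1 alone of the 6 also held a cyclic AMP response element (TGACGTCA, in 1.55% of windows) and a TATA box (TATAAA, either strand, 12.4%). No match of one motif overlapped a match of another in these 6 windows. A match describes the letters of a window and is no evidence of binding. Bases outside these windows were not searched, so a motif missing from a window may lie elsewhere near the gene.

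After MI the Vegfa transcript was 3.30-fold higher, while those of Kdr, Flt1 and Nrp1 were 4.28-fold, 3.996-fold and 2.62-fold lower. Vegfb was 1.51-fold lower and Pgf 1.36-fold higher, and the Pgf call was not stable. All 6 genes lay below the threshold of 0.05 for the Benjamini-Hochberg adjusted p over 13370 genes (quasi-likelihood test of edgeR), 2 higher and 4 lower. Over all genes tested 73.3% passed, 36.4% higher and 36.9% lower, so that passing alone does not set these genes apart. None of the 6 overlapped between groups in CPM, as was true of 76.1% of all genes tested. The median log2 fold change was -0.99 over the 6 members and -0.01 over all genes tested. With libraries scaled to total counts the median over all genes was -0.36, and higher calls were 34.9% of all calls instead of 49.6%.

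**Figure D1:**
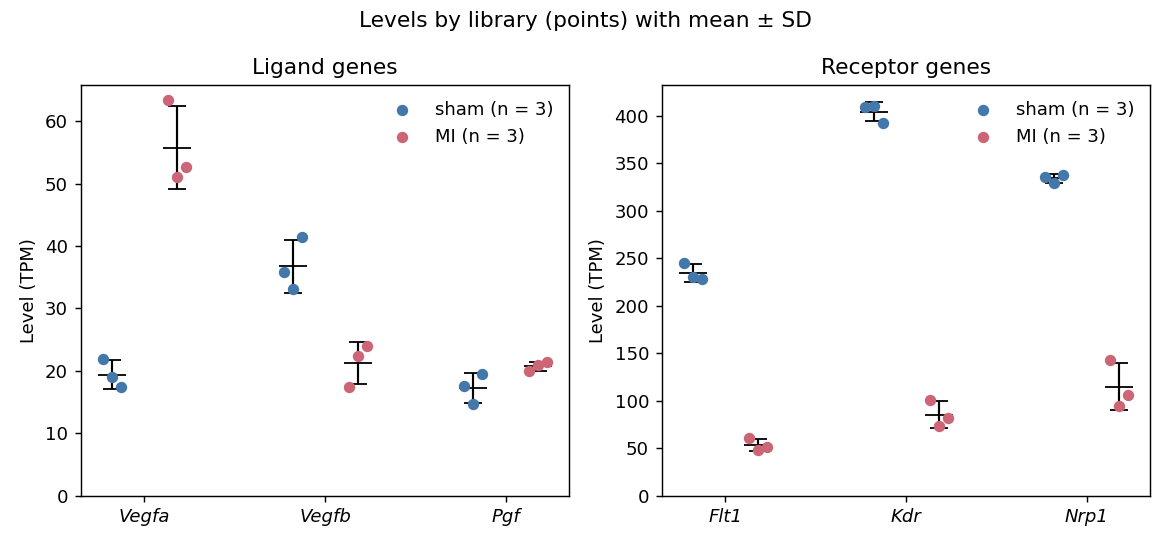
Levels in TPM (a transcript level corrected for gene length) of the 3 ligand genes (left) and 3 receptor genes (right) in each library, with bars for the mean ± SD (n = 3). The 3 MI libraries sit above the sham libraries for Vegfa (51.1 to 63.4 against 17.4 to 21.9) and below them for every receptor gene, while the Pgf groups lie side by side.

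Vegfa (Entrez 22339, chr17:46016993-46032377 of GRCm38.p6) stood at 21.9, 18.9 and 17.4 TPM in sham 1, 2 and 3 and at 63.4, 51.1 and 52.7 TPM in MI 1, 2 and 3. Every MI library was above every sham library, and MI 1 was the highest of all. In the fit, its level went from 33.4 ± 4.69 to 110.3 ± 6.78 CPM (SD, n = 3), a log2 fold change of 1.72 ± 0.12 (SE, adjusted p = 5.65e-08, edgeR). The value ran from 1.37 with libraries scaled to total counts to 1.83 without sham 1, and the call held in all 16 alternative analyses. The sham values rest on 104 to 154 counts per library, for which counting error alone gives a coefficient of variation of 8.79%, against an observed 14.1%.

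Genes that control Vegfa were mixed. Of 17 tested regulators, 7 were higher and 2 lower (median log2 fold change 0.14). Over all 13370 genes tested, 36.4% were higher and 36.9% lower. With libraries scaled to total counts 4 regulators were higher and 8 lower, against 3550 and 6627 of all genes tested. Hif1a, the oxygen-regulated factor that activates Vegfa, was 3.06-fold higher (99.1 ± 8.58 to 303 ± 75.6 CPM), with a wide spread among the MI libraries. Stat3 was 1.69-fold higher and Nfe2l2, the factor of the antioxidant response, 1.52-fold higher. Epas1, the endothelial hypoxia-inducible factor gene, was 2.84-fold lower (936 ± 39.0 to 329.8 ± 0.182 CPM), and Ppargc1a, a coactivator of mitochondrial genes that also induces Vegfa, was 15.3-fold lower at low levels (3.66 ± 0.894 to 0.228 ± 0.0598 CPM).

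Other known targets of hypoxia-inducible factors moved in both directions. Of 24 tested, 14 were higher and 8 lower (median 0.55, against -0.01 over all genes). Over all genes tested 36.4% were higher and 36.9% lower. The lipid droplet gene Hilpda was 14.0-fold higher, the hexokinase gene Hk2 7.69-fold and the glucose transporter gene Slc2a1 7.09-fold. The oxygen sensor gene Egln1 was 2.95-fold lower, the vasodilator peptide gene Adm 4.90-fold and Ankrd37 4.43-fold. The summed level of the 20 macrophage genes was higher in the same MI libraries, and its part in the Vegfa and hypoxia values was not tested.

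Vegfb (Entrez 22340, chr19:6982472-6987651) encodes the ligand that the heart is known to make in large amounts, mainly in cardiomyocytes. It stood at 35.8, 33.1 and 41.5 TPM in sham 1, 2 and 3 and at 17.5, 22.4 and 23.9 TPM in MI 1, 2 and 3. The groups did not overlap, and MI 1 was the lowest. On the CPM scale the level went from 23.0 ± 2.39 to 15.2 ± 3.18 (log2 fold change -0.60 ± 0.17, adjusted p = 0.00838, edgeR). Without MI 1 the change was -0.41 (adjusted p = 0.00386), and without sham 3 it was -0.51 with an adjusted p of 0.0483, just inside the threshold. The cardiomyocyte list, with 13 of 14 genes lower and a median of -4.09, moved the same way by more, and its part in the Vegfb value was not tested.

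Pgf (Entrez 18654, chr12:85166637-85177785) stood at 17.7, 14.8 and 19.5 TPM in sham 1, 2 and 3 and at 19.97, 20.96 and 21.3 TPM in MI 1, 2 and 3. Its groups were next to each other, with sham 3 within 1 TPM of MI 1, and they overlapped in the authors' FPKM values (8.79 to 11.7 in sham, 9.87 to 11.5 in MI). The fit gave a log2 fold change of 0.44 ± 0.16 (13.8 ± 2.01 to 18.7 ± 2.13 CPM, adjusted p = 0.0222, edgeR). The call was lost in 8 of 16 alternative analyses, among them library totals (0.09, adjusted p = 0.597) and all libraries thinned to the smallest total (0.27, adjusted p = 0.273). It was also lost without sham 1, sham 2, MI 2 or MI 3 (0.36 to 0.43, adjusted p = 0.0536 to 0.0986). Each sham value rests on 47.0 to 58.3 counts, and the sham spread of 14.6% is close to the 13.7% that counting error alone gives.

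Kdr (Entrez 16542, chr5:75932827-75979072) was the most abundant member in sham, at 409.7, 410.4 and 393 TPM in sham 1, 2 and 3, and stood at 100.7, 73.0 and 81.4 TPM in MI 1, 2 and 3. The highest MI library was far below the lowest sham library. In CPM the level went from 1256 ± 25.7 to 293 ± 30.3, a log2 fold change of -2.10 ± 0.09 (adjusted p = 8.41e-10, edgeR).

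Flt1 (Entrez 14254, chr5:147561604-147726438) stood at 245, 231 and 228 TPM in sham 1, 2 and 3 and at 60.5, 48.0 and 51.5 TPM in MI 1, 2 and 3. Its groups were as far apart as those of Kdr, with MI 1 again the highest of the MI libraries. Its log2 fold change was -1.998 ± 0.09 (745 ± 31.7 to 186 ± 17.1 CPM, adjusted p = 1.26e-09, edgeR). The table counts genes, so the soluble and the membrane-bound form of Flt1 are not told apart.

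Nrp1 (Entrez 18186, chr8:128358591-128505476) stood at 336, 329 and 338 TPM in sham 1, 2 and 3 and at 142.8, 94.95 and 106.5 TPM in MI 1, 2 and 3. The sham libraries were nearly equal, and the MI libraries spread 15.4% around their mean in CPM, against 1.15% from counting error alone. Its log2 fold change was -1.39 ± 0.10 (1038 ± 19.2 to 396 ± 60.9 CPM, adjusted p = 1.31e-07, edgeR). The calls of Kdr, Flt1 and Nrp1 held in all 16 alternative analyses, with log2 fold changes of -2.45 to -2.04, -2.35 to -1.94 and -1.74 to -1.31.

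**Figure D2:**
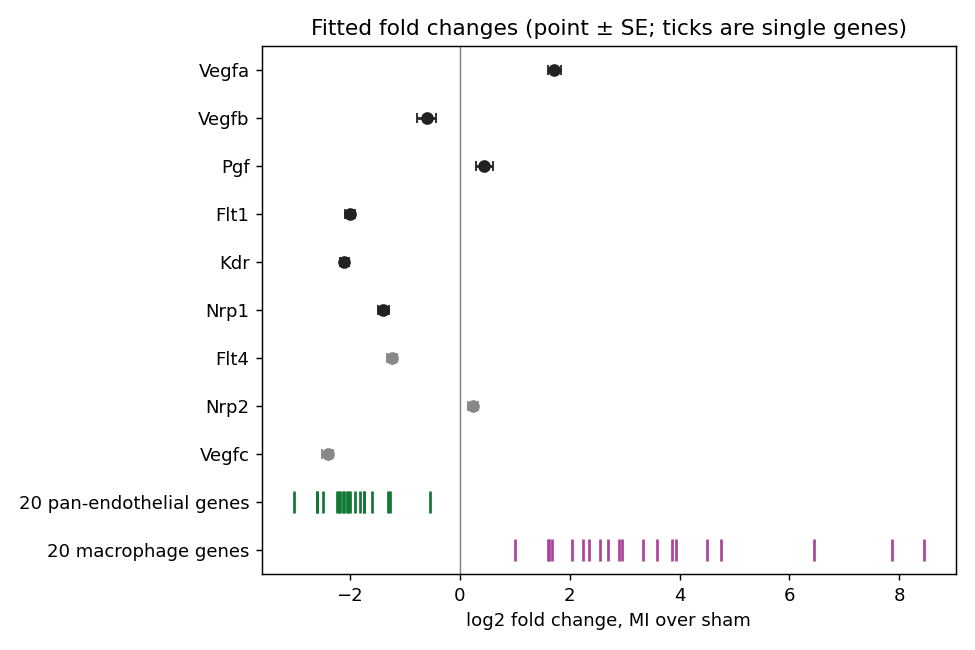
Log2 fold changes of MI over sham from the edgeR fit (horizontal axis) for the 6 members (black) and for Flt4, Nrp2 and Vegfc (grey), as points with their SE; ticks show single pan-endothelial (green) and macrophage (purple) genes. Kdr (-2.10) and Flt1 (-1.998) lie near the pan-endothelial median of -2.05, while Vegfa (1.72) lies at the low end of the macrophage genes, whose median was 2.92.

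The order of the members differed between the sham and the MI libraries. In TPM, all 3 sham libraries had Kdr highest, then Nrp1, Flt1 and Vegfb, with no overlap between neighbours, and Vegfa and Pgf last with overlapping ranges. All 3 MI libraries had Nrp1 highest, then Kdr, Vegfa and Flt1, although the ranges of Nrp1 and Kdr and those of Vegfa and Flt1 overlapped between libraries, as did those of Pgf and Vegfb, the lowest. The 3 receptor genes together went from 973 ± 15.9 to 253 ± 45.6 TPM and the 3 ligand genes from 73.5 ± 6.02 to 97.8 ± 3.16 TPM (SD, n = 3). There were thus 13.3 ± 1.15 receptor transcripts per ligand transcript in sham and 2.58 ± 0.384 in MI, with no overlap between the groups (12.2 to 14.5 against 2.28 to 3.01). How often such ratios of other gene sets overlap was not computed. The pan-endothelial genes were lower and the macrophage genes higher in the same MI libraries, and their part in this ratio was not tested.

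**Figure D3:**
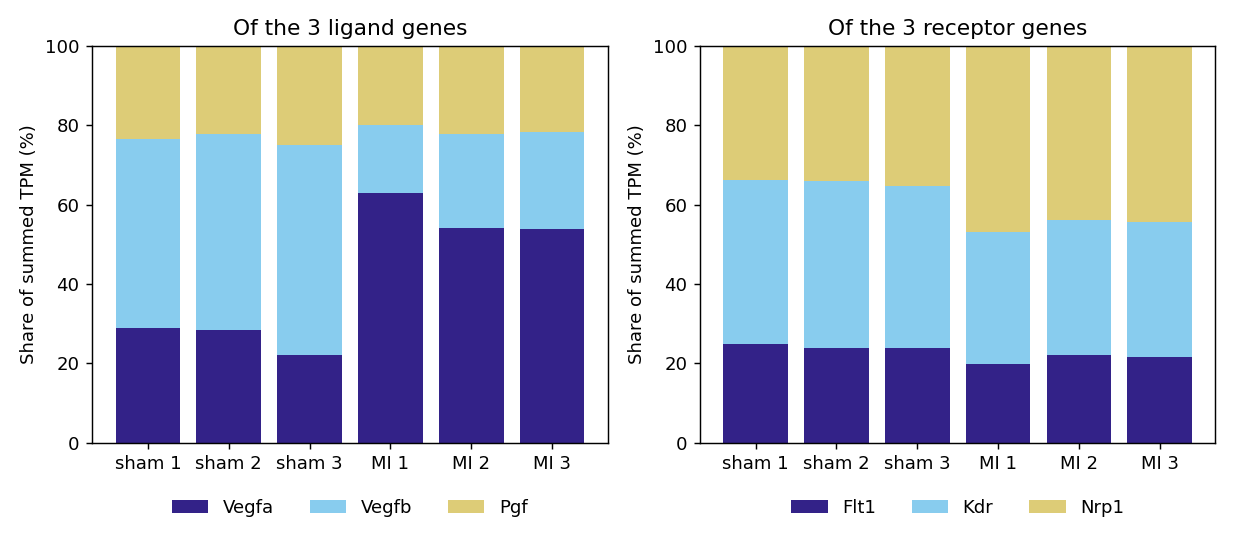
Share of each gene in the summed TPM of the 3 ligand genes (left) and of the 3 receptor genes (right), as stacked bars for each library. Vegfa takes 22.2% to 29.0% of the ligand transcripts in sham and 53.8% to 62.9% in MI, and Nrp1 takes 33.9% to 35.3% of the receptor transcripts in sham and 44.0% to 47.0% in MI.

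Ratios of 2 members within a library do not depend on how libraries are scaled. Vegfa per Vegfb in TPM was 0.535 ± 0.102 in sham and 2.70 ± 0.804 in MI, so that the more abundant ligand transcript went from Vegfb to Vegfa. Pgf per Vegfa was 0.903 ± 0.191 and 0.377 ± 0.0534, and Pgf per Vegfb 0.470 ± 0.0234 and 0.990 ± 0.135. Among the receptors, Flt1 per Kdr was 0.581 ± 0.0185 in sham and 0.630 ± 0.0284 in MI, a difference of 0.10 on the log2 scale of the counts. Nrp1 per Kdr was 0.827 ± 0.0301 and 1.34 ± 0.0656, and Nrp1 per Flt1 1.43 ± 0.0572 and 2.14 ± 0.200 (SD, n = 3). In none of these 6 ratios did the groups overlap, but Flt1 per Kdr in TPM was barely apart (sham up to 0.599, MI from 0.601). The share of other gene pairs whose ratios do not overlap was not computed, and 76.1% of single genes did not overlap in CPM. On log2 ratios of counts, each gave p = 0.1 in an exact two-sided permutation test (0.1 after Benjamini-Hochberg adjustment over the 6). This is the smallest p that 3 against 3 libraries allow.

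Set beside the pan-endothelial genes of the same library, the sham and MI ranges of Kdr and Flt1 overlapped, and those of Nrp1 did not. For Kdr and Flt1 the overlap came through MI 1, which lay above every sham library. MI 2 and MI 3 lay below every sham library in both genes. The measure was log2(CPM + 0.5) of a member minus the mean of 20 pan-endothelial genes, none of them a member. The members were not set beside the 12 blood capillary genes in this way. Those genes had log2 fold changes of -3.93 to -1.29, with a median (-2.97) below the values of Kdr (-2.10) and Flt1 (-1.998). Flt1 was at 1.03 ± 0.05 in sham and 1.00 ± 0.19 in MI (exact two-sided permutation p = 0.8, n = 3 per group). Kdr was at 1.78 ± 0.04 and 1.65 ± 0.21 (exact p = 0.4). The range was 0.98 to 1.07 in sham and 0.83 to 1.21 in MI for Flt1. For Kdr it was 1.75 to 1.82 in sham and 1.47 to 1.88 in MI, with MI 1 the highest in both genes. Nrp1 was at 1.51 ± 0.02 and 2.08 ± 0.28, and the 3 ligand genes were 3.69 (Vegfa), 2.40 (Pgf) and 1.37 (Vegfb) higher in MI. The groups of these 4 genes did not overlap, as was true of 93.2% of all genes tested on this measure, with 90.0% of all genes tested higher in MI. The median difference over all genes tested was 1.97, so that Nrp1 and Vegfb lay below that median and Vegfa and Pgf above it. The 20 pan-endothelial genes themselves had log2 fold changes of -3.02 to -0.55 in the edgeR fit, a range that includes the Nrp1 value (-1.39). The permutation test gave the 4 genes the same value (exact p = 0.1 each, the smallest possible, and 0.15 adjusted over the 6 members).

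**Figure D4:**
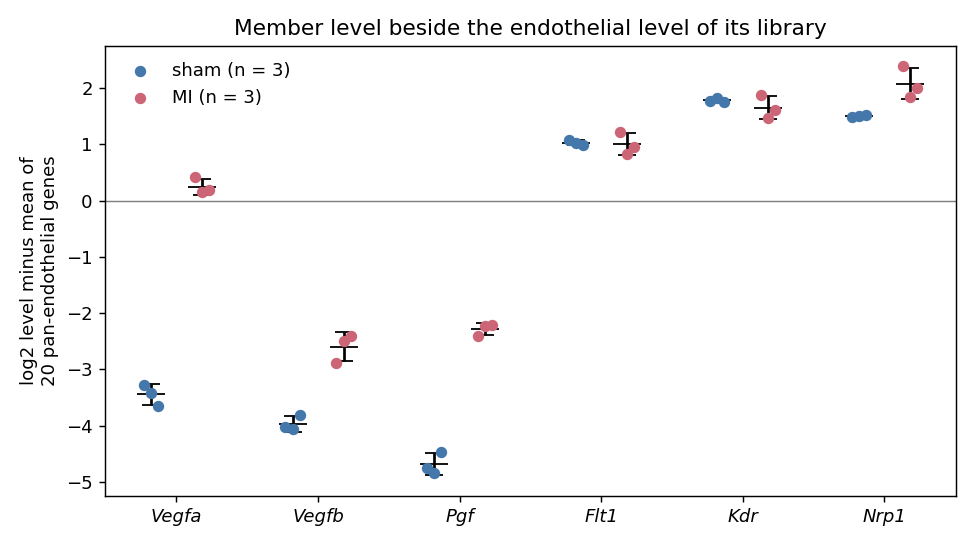
Level of each member, as log2(CPM + 0.5) minus the mean of 20 pan-endothelial genes, in each library (points) with the mean ± SD (n = 3). The sham and MI libraries of Flt1 and Kdr overlap, those of Nrp1 lie apart by 0.57, and Vegfa goes from -3.44 to 0.25.

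The edgeR fit was repeated over all genes with each library scaled to its summed pan-endothelial counts. This scaling was chosen with the data in view and takes that scale as free of error. On it the log2 difference was 0.00399 for Flt1 (95% interval -0.21 to 0.22, adjusted p = 0.969) and -0.10 for Kdr (-0.31 to 0.12, adjusted p = 0.363). It was 0.61 for Nrp1 (0.35 to 0.87, adjusted p = 4.83e-04), or 1.53-fold higher. Of the pan-endothelial genes themselves, 6 were called higher and 6 lower on this scale, so a higher call here is not particular to Nrp1. On this scale 86.6% of all genes tested were called higher and 3.95% lower, and the median over all genes was 1.98, above the Nrp1 value. The macrophage list was higher in the same MI libraries, and its part in the Nrp1 value was not tested.

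The other genes of the family went both ways. Vegfc, the main ligand of lymphatic growth, and its receptor gene Flt4 were lower, with log2 fold changes of -2.41 ± 0.11 (70.7 ± 1.89 to 11.9 ± 0.526 TPM, adjusted p = 1.45e-09, edgeR) and -1.23 ± 0.10 (22.6 ± 1.44 to 8.64 ± 0.754 TPM, adjusted p = 2.99e-07). Nrp2, the neuropilin that pairs with the lymphatic receptor, was at 75.4 ± 1.48 TPM in sham and 83.9 ± 16.3 TPM in MI. Its log2 fold change of 0.23 ± 0.09 (adjusted p = 0.0377, edgeR) changed sign with libraries scaled to total counts (-0.11, adjusted p = 0.287), and the call was lost in 10 of 16 alternative analyses. The lymphatic ligand gene Vegfd had 3 counts over the sham libraries and 98 over the MI libraries, a ratio of 6.62 after scaling, with an exact 95% interval of 2.20 to 32.7 that covers counting error only.

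Genes that carry the signal inside the cell from VEGFR-2 were also divided. Of 40 tested, 20 were higher and 14 lower (median 0.29). All 13370 genes tested were divided too, 36.4% higher and 36.9% lower, so a split alone does not set these genes apart. With libraries scaled to total counts 15 were higher and 17 lower, against 3550 and 6627 of all genes tested. Among the higher were the kinase gene Mapkapk2 (4.46-fold), the scaffold gene Iqgap1 (4.78-fold) and the adaptor gene Grb2 (3.60-fold), all broadly expressed. Among the lower were the adaptor gene Nck1 (6.11-fold), the kinase gene Prkd1 (8.10-fold) and Hspb1 (5.89-fold), which encodes a small heat shock protein that the p38 pathway acts on. Genes for proteins that restrain, traffic or share these receptors also went both ways, as did all genes tested. Of 29, 13 were higher and 15 lower (median -0.22). The phosphatase genes Ptprj (7.18-fold), Ptpn1 (4.37-fold) and Ptpn6 (7.21-fold, a gene mainly of blood cells) were higher. The junction gene Cdh5 (3.76-fold), the endocytic adaptor gene Epn2 (4.89-fold) and the Notch ligand gene Dll4 (4.32-fold), which tip cells make in response to VEGF-A, were lower. Cdh5 is also in the pan-endothelial list, and the part of that list in these values was not tested.

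The genes most like each member were taken as the 2 with the smallest root mean square difference of centred log2(CPM + 0.5) over the 6 libraries, among 10833 genes with a mean of at least 5 CPM. For Kdr these were Papln and Pls3 (0.0263 and 0.0371 log2 units) and for Flt1 Pls3 and Efnb2 (0.0245 and 0.0267). Efnb2 encodes ephrin-B2, a membrane ligand of arterial endothelium, and Pls3 an actin-bundling protein. For Nrp1 they were Steap4 and Tubgcp5 (0.0383 and 0.0407), and for Vegfb Adamtsl2 and the mitochondrial protease gene Clpp (0.0398 and 0.0695). With 2 groups of 3 libraries, this likeness mostly reflects the size of the difference between sham and MI.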

How the data were processed

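RNA of 6 libraries, 3 sham and 3 MI, was sequenced on the BGISEQ-500 platform and mapped to GRCm38, per the labels and the series' design text. The submitters' processing notes name GRCm38.p6 and, with no role, Agilent Feature Extraction 9.1, a microarray program. The authors deposited estimated counts per gene (not scaled, with decimals), TPM and FPKM. The counting program, annotation, strand setting and filters are not given in the sources used here, so reads of overlapping genes and close paralogs are uncertain.

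Groups and replicate numbers came from the sample titles. Estimated counts were rounded. In R 4.3.3, edgeR 4.0.16 kept 13370 genes (filterByExpr), applied TMM scaling and a quasi-likelihood fit of the group alone; the adjusted p threshold was 0.05, two-sided. Each SE was derived from the fold change and its F statistic. Levels of different genes were compared in TPM. Positions and promoters came from RefSeq (GRCm38.p6), where all 6 members matched. Alternatives used DESeq2 1.42.0, limma 3.58.1, other scalings and filters, a replicate block, thinned libraries, TPM, and each library left out. On simulated data for this comparison (13370 genes), 87% of 2-fold and 56% of 1.5-fold changes were recovered. The simulation changed 200 genes and gave all genes 1 common dispersion, whereas 73.3% of genes were called here. Its recovery rates may therefore not hold for these data. The members, the gene lists and the alternatives were chosen with earlier results of these data known. Named genes were all members, all other family genes, up to 3 called genes in each direction with the smallest p from each pathway list, and the 2 genes most like each member; those of Vegfa and Pgf are not reported here.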

Additional observations from a re-analysis of the deposited data

How the results depend on the processing

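Vegfa, Vegfb, Kdr, Flt1 and Nrp1 kept their direction and their call in all 16 alternatives listed in the methods; the highest adjusted p was that of Vegfb without sham 3 (0.0483, edgeR). Pgf lost its call with libraries scaled to total counts (0.0925), thinned libraries (0.27) and limma on log2(TPM + 1) and log2(TPM + 0.1) (0.26 and 0.27), and ran from 0.36 to 0.56 with single libraries left out. Nrp2 changed sign with total counts (-0.11) and lost its call in 10 of the 16 (adjusted p = 0.0502 to 0.356): total counts, limma-voom, the stricter filter, the replicate block, both TPM fits, and without sham 1, sham 2, sham 3 or MI 3. Same-numbered libraries did not deviate together (r of -0.07, -0.04 and 0.00). The sham libraries differed from each other by little more than counting error, so these correlations cannot tell whether the numbers pair the libraries. The replicate block gave 4764 higher and 4871 lower genes and changed no call of a member. Scaling to the pan-endothelial list gave 11579 higher and 528 lower genes, with Vegfb at 1.40, Nrp1 at 0.61, Flt1 at 0.00399, Kdr at -0.10 and Flt4 at 0.77; these differ because all values are then relative to genes that fell. The within-library log2 ratios kept their direction in counts, TPM, thinned counts and with single libraries left out. In thinned counts Pgf per Vegfb was 0.82 instead of 1.06 and Nrp1 per Flt1 0.51 instead of 0.60. The sham depth limits the ligand genes, which had 47.0 to 154 counts per sham library.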

Other observations

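Genes known to respond to VEGF-A in endothelial cells did not move as one. Of 25 tested, 9 were higher and 14 lower in MI (median log2 fold change -0.60, against -0.01 over all genes tested). Over all genes tested 36.4% were higher and 36.9% lower, so moving both ways does not set this list apart. Among the higher were Ptgs2, the inducible prostaglandin synthase gene (50.6-fold, 46.4 ± 1.78 to 2349 ± 780 CPM), the phosphatase gene Dusp5 (10.4-fold, 16.2 ± 2.04 to 169 ± 8.40 CPM) and the urokinase receptor gene Plaur (9.68-fold, 55.5 ± 1.91 to 538 ± 52.6 CPM), which myeloid cells also make. Among the lower were the surface protein gene Cd34 (4.43-fold, 942 ± 14.7 to 213 ± 2.54 CPM), Dll4 (4.32-fold) and the protease gene Adamts1 (3.28-fold, 567 ± 3.44 to 173 ± 20.6 CPM). The list holds Pgf, a member, and Dll4, which is also in the list of receptor regulators. The macrophage genes were higher and the pan-endothelial genes lower in the same libraries, and their part in these values was not tested.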
